A study of Rattus norvegicus with 12 samples.

Results

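The genera described here are 9 named groups of the Lachnospiraceae, a family of anaerobic, fibre-fermenting gut bacteria: Roseburia, Acetatifactor, Lachnospira, Lachnoclostridium and every genus of that family whose name starts with [Eubacterium]. Members were found by the lineage attached to each amplicon sequence variant (ASV, an exact 16S rRNA gene sequence inferred from the reads). The rule took 146 ASVs of the 7240 in the table and 9 of its 384 genus-level features, against 2001 ASVs in the whole family. Roseburia held 59 of these ASVs and the [Eubacterium] xylanophilum group 35. Lachnoclostridium, Acetatifactor and the [Eubacterium] oxidoreducens group had 13 each, the [Eubacterium] ventriosum group 5, Lachnospira and the [Eubacterium] hallii group 3 each, and the [Eubacterium] ruminantium group 2. No member ASV carried a named species: 62 were listed as an uncultured bacterium, 5 as an uncultured member of the Clostridiales and 79 without a species. ASVs have no identifiers or sequences in the table, so each is called here by its genus and its rank in mean share over the 12 libraries.

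The study sequenced rat faeces from 4 groups of 3 libraries. Sham were sham-operated rats, and SAH were rats with subarachnoid haemorrhage, a bleed around the brain. SAH+Tet were rats with the haemorrhage and tetrandrine, a plant alkaloid, and SAH+Tet+ABX had the haemorrhage, tetrandrine and ABX, the usual abbreviation for antibiotics. The stated question was whether the gut microbiota differed among these groups, after tetrandrine had improved cognition in the model. The sources used here do not give strain, sex, age, doses, the antibiotics or the day of sampling. Nor do they say whether each library is a separate animal, so every p-value measures only the spread between libraries.

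Some of these genera are known as makers of butyrate, a short-chain fatty acid that feeds the lining of the colon. Roseburia is a genus of motile, flagellated rods that ferment starch and plant cell wall fibre and take up acetate to make butyrate. The names with [Eubacterium] are clusters around former Eubacterium species whose placement is unsettled, hence the brackets: E. hallii turns lactate and acetate into butyrate, E. xylanophilum degrades xylan, and E. oxidoreducens breaks down plant phenolics such as gallate. Lachnospira is known for fermenting pectin, Acetatifactor was described from the mouse caecum, and Lachnoclostridium gathers many former Clostridium species.

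Library totals ran from 211450 to 531426 reads in 2 depth classes: the lower held 5 libraries (the 3 of SAH+Tet+ABX, SAH+Tet 3 and SAH 1) and the higher the other 7. With 0 reads, a share of up to 0.000565% to 0.00142% is allowed (3 reads of the library). For the 29 member shares of at least 0.1%, the widest 95% Wilson interval reached 11.3% of the share to either side. Both limits cover counting error only, since PCR copies are not independent molecules. The 6 families usual in the rat hindgut held 54.9% to 83.9% of the reads of a library, as the label faeces implies. All values are shares of reads, so a lower share and fewer bacterial cells cannot be told apart from a rise of other taxa.

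Together, the 9 genera made up 5.79% ± 2.59 (SD, n = 3) of all reads in Sham and 4.50% ± 1.68 in SAH. The SAH+Tet mean was 2.42% ± 0.785, and that of SAH+Tet+ABX 1.31% ± 0.428. Of the reads of the Lachnospiraceae alone, they made up 20.5% ± 5.96, 21.3% ± 0.692, 11.5% ± 4.97 and 5.25% ± 1.07 in the same order. The Sham libraries spread widely, from 2.81% to 7.54% of all reads, and Sham 2 was below each SAH library. The SAH+Tet libraries held 2.99%, 2.75% and 1.52%, and the SAH+Tet+ABX libraries 1.68%, 0.839% and 1.40%. These 2 groups overlap in the share of all reads, since SAH+Tet+ABX 1 exceeded SAH+Tet 3.

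**Figure D1:**
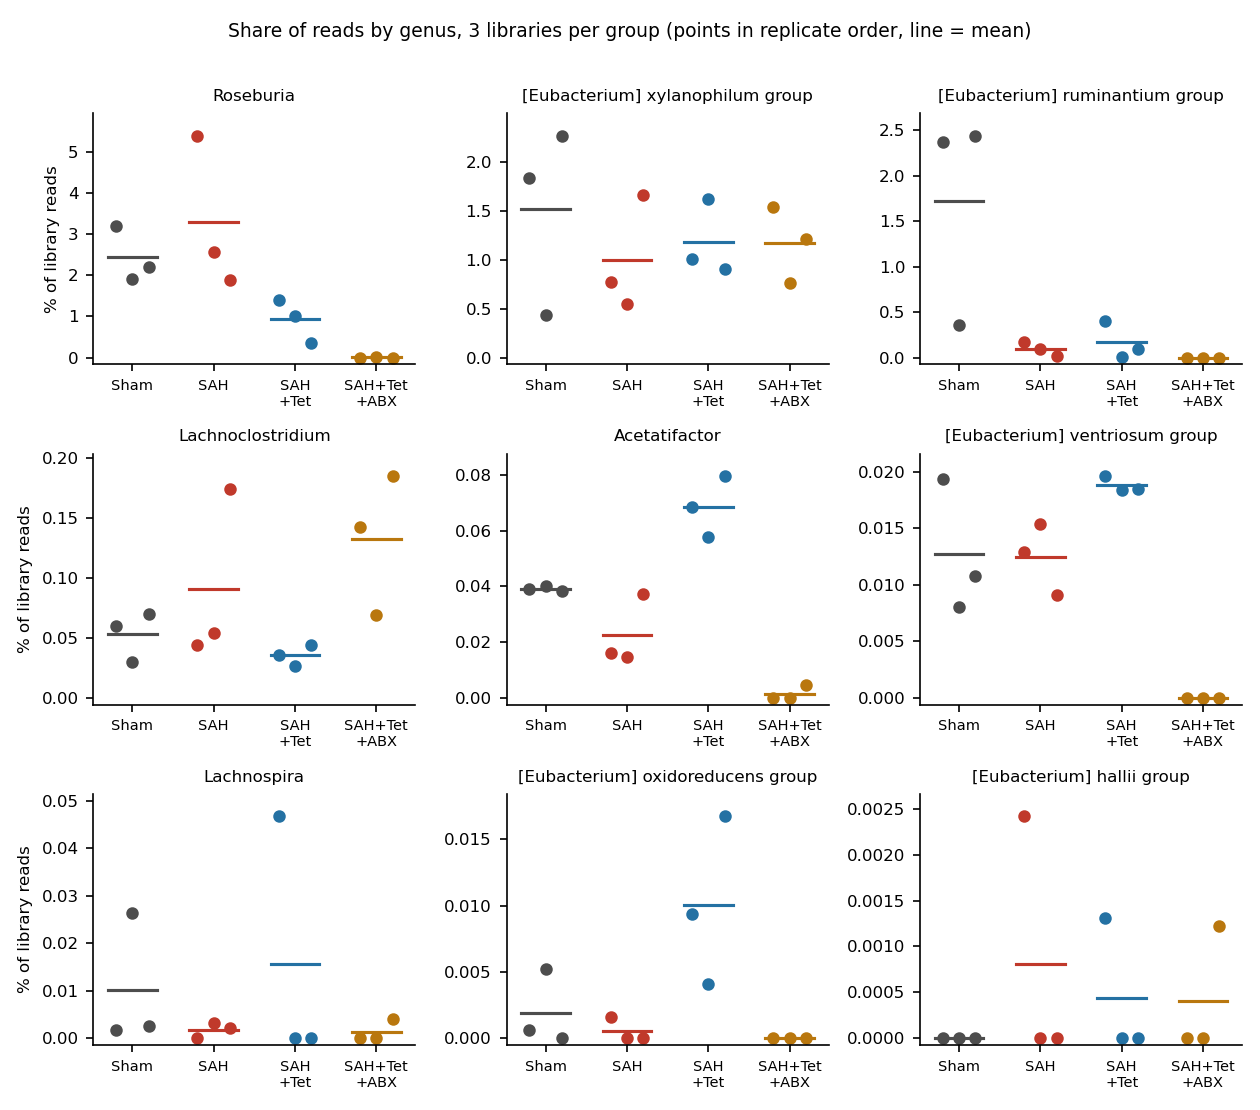
Share of all reads (%, linear axes with a scale of their own in each panel) of each of the 9 genera in the 12 libraries; points are libraries, lines are means of 3. Roseburia, the [Eubacterium] ruminantium group, Acetatifactor and the [Eubacterium] ventriosum group lie at or near 0 in SAH+Tet+ABX, while the [Eubacterium] xylanophilum group and Lachnoclostridium do not.

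Over the 4 groups, 8 of the 9 genera could be tested, having at least 10 reads in at least 3 libraries, and 3 differed: Roseburia, the [Eubacterium] ruminantium group and the [Eubacterium] ventriosum group. The test was edgeR's quasi-likelihood F test, with Benjamini-Hochberg adjustment over the 195 genera tested and a threshold of 0.05. Adjusted p was 0.0238 for Roseburia, 0.0150 for the [Eubacterium] ruminantium group and 0.00316 for the [Eubacterium] ventriosum group. Of all genera tested, 31.8% passed, so 3 of 8 is near the background. Acetatifactor missed the threshold (adjusted p = 0.0712). It passed without SAH+Tet+ABX 3 (0.00413), the 1 SAH+Tet+ABX library that held it. Leaving that library out left the group without a read of the genus, so this pass is no separate support. Acetatifactor also passed in an exact permutation of the F statistic on log2 shares over all these genera (0.0111), which 26.2% of them passed. The [Eubacterium] oxidoreducens group (0.0988) passed without SAH 1 (0.0490). The [Eubacterium] hallii group was not tested: SAH 1 and SAH+Tet 1 held 6 reads each of it, SAH+Tet+ABX 3 held 3, and the other libraries 0.

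Roseburia, the most abundant of the 9 genera, was highest in SAH and Sham, lower in SAH+Tet and nearly absent from SAH+Tet+ABX. It took 3.21%, 1.91% and 2.19% of the reads in Sham 1 to 3, and 5.40%, 2.57% and 1.90% in SAH 1 to 3. It took 1.39%, 1.02% and 0.365% in SAH+Tet 1 to 3, and SAH+Tet+ABX held 28 reads in library 2 (0.0120%) and 0 in the others. Group means were 3.29% ± 1.86 for SAH, 2.44% ± 0.684 for Sham, 0.925% ± 0.519 for SAH+Tet and 0.00399% ± 0.00690 for SAH+Tet+ABX. SAH and Sham, neighbours in this order, overlapped, whereas each later step separated all 3 libraries of 1 group from all 3 of the next.

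Beneath the genus, Roseburia was made of different ASVs in different libraries. Roseburia ASV 1 held 2.62%, 1.44% and 1.38% of all reads in Sham and 5.13% and 2.27% in SAH 1 and 2, and it was 63.2% to 95.1% of the genus in those 5 libraries. It fell to 0.0319% in SAH 3, and stood at 0.244%, 0.00697% and 0.0220% in SAH+Tet and at 0 in SAH+Tet+ABX. Roseburia ASV 2 had no read in Sham, SAH 1 or SAH 2, yet it was the leading Roseburia of SAH 3 (1.27%), SAH+Tet 1 (0.596%) and SAH+Tet 2 (0.478%). It had no read in SAH+Tet 3, where the most abundant Roseburia ASV made up 15.1% of the genus. Roseburia ASV 3 ran from 0.0262% to 0.356% in 8 of the 9 libraries without antibiotics, with 0 in SAH+Tet 3. The leading Roseburia of SAH 3 was thus that of SAH+Tet 1 and 2 rather than that of SAH 1 and 2.

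SAH 1 and 2 owed most of their Roseburia to its leading ASV, and SAH 3 did not. ASV 1 was 95.1% and 88.0% of the genus in SAH 1 and 2, so leaving it out had to remove most of their Roseburia. The values without it therefore do not show where the difference between SAH+Tet and SAH lay. With ASV 1 kept, the edgeR log2 fold change of the genus stayed between -2.52 and -1.45 without any 1 library. Without Roseburia ASV 1, the genus held 0.264%, 0.308% and 1.86% in SAH and 1.15%, 1.01% and 0.343% in SAH+Tet. Group means without it were 0.621% ± 0.171 in Sham, 0.812% ± 0.911 in SAH and 0.834% ± 0.430 in SAH+Tet. The log2 ratio of the mean shares of SAH+Tet over SAH went from -1.83 with this ASV to 0.038 without it. The latter value rests on SAH 3: with that library left out too it was 1.54, and with any other of the 6 libraries left out it was between -0.38 and 0.41. SAH 3 held little of ASV 1, yet its Roseburia total was above that of each SAH+Tet library.

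**Figure D2:**
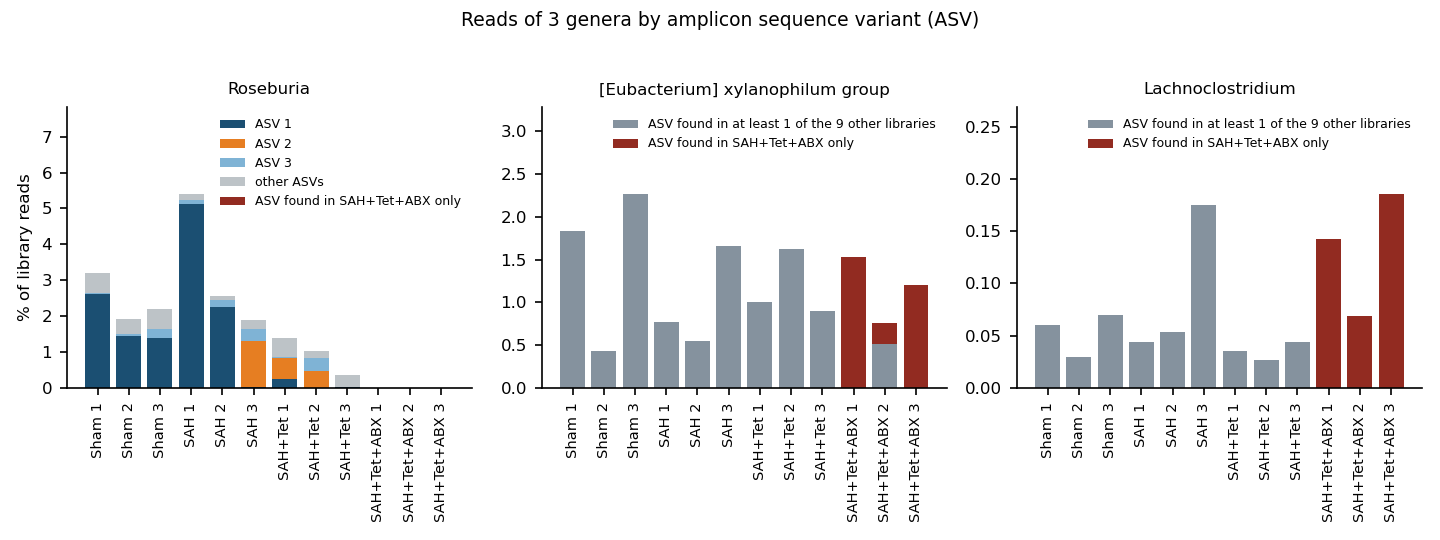
Stacked bars of the share of all reads (%) in each library for Roseburia, the [Eubacterium] xylanophilum group and Lachnoclostridium, split by ASV; red marks ASVs found only in SAH+Tet+ABX libraries. Roseburia ASV 1 leads in Sham, SAH 1 and SAH 2 and ASV 2 in SAH 3, SAH+Tet 1 and SAH+Tet 2, and in SAH+Tet+ABX the other 2 genera consist of ASVs that none of the other 9 libraries held, except in SAH+Tet+ABX 2, where such ASVs give 32.5% of the [Eubacterium] xylanophilum group.

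The [Eubacterium] ruminantium group, whose namesake is a rumen bacterium, was highest in Sham and low elsewhere. It rested on 1 ASV, which held 99.98% of its reads in Sham 3 and 100% in the other libraries with reads. Shares were 2.37%, 0.356% and 2.44% in Sham and 0.168%, 0.0909% and 0.0131% in SAH. The SAH+Tet libraries had 0.406%, 0.00329% and 0.0955%, and all 3 SAH+Tet+ABX libraries 0. No SAH library reached the lowest Sham library, while SAH+Tet 1 did. The means ran from 1.72% ± 1.18 in Sham through 0.168% ± 0.211 in SAH+Tet to 0.0908% ± 0.0776 in SAH, and the last pair overlaps.

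The [Eubacterium] xylanophilum group, in contrast, kept similar shares in the 4 groups, with means of 1.51% ± 0.956 in Sham and 0.992% ± 0.588 in SAH. The SAH+Tet mean was 1.18% ± 0.386, and the SAH+Tet+ABX mean 1.17% ± 0.391. All neighbouring groups overlapped, and the 4-group test gave an adjusted p of 0.983. The ASVs behind this level changed, however. [Eubacterium] xylanophilum group ASV 1 led in Sham 1 (1.20%), Sham 3 (1.47%), SAH+Tet 1 (0.515%) and SAH+Tet 2 (0.273%), and was found in each of the 9 libraries without antibiotics, but in SAH+Tet+ABX it had 46 reads in library 2 and 0 in libraries 1 and 3. ASV 2 of the same group held 0 reads in those 9 libraries and 1.54% of all reads in SAH+Tet+ABX 1, where it was the whole genus. It was at 0.0256% in SAH+Tet+ABX 2 and 0 in SAH+Tet+ABX 3.

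[Eubacterium] xylanophilum group ASV 3 and ASV 5 were among the 5 member ASVs with the lowest p over the 4 groups. ASV 3 held 0.0337%, 0.0417% and 0.0310% in Sham, 0.0121%, 0.0132% and 0.0575% in SAH, and 0.0913%, 0.216% and 0.612% in SAH+Tet. All 3 SAH+Tet libraries thus stood above the other libraries, and SAH+Tet+ABX had no read of it. ASV 5 had no read in Sham or SAH+Tet+ABX, 0.0290%, 0.162% and 0.573% in SAH, and 0.178%, 0.0348% and 0.0629% in SAH+Tet. It was found in each library of both groups with haemorrhage and without antibiotics.

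Lachnoclostridium had means of 0.0533% ± 0.0207 in Sham and 0.0910% ± 0.0726 in SAH. With tetrandrine the mean was 0.0357% ± 0.00867, and with ABX added 0.132% ± 0.0588. The 3 SAH+Tet+ABX libraries (0.143%, 0.0692% and 0.185%) were above the 3 of SAH+Tet (0.0356%, 0.0271% and 0.0444%), and SAH 3 (0.175%) stood above SAH 1 (0.0443%) and SAH 2 (0.0540%). In SAH+Tet+ABX, each of its reads came from 5 ASVs found in no other group. Lachnoclostridium ASV 1 alone took 0.0615%, 0.0401% and 0.0809% there. Lachnoclostridium ASV 2 and ASV 3, found in 7 and 8 of the 9 other libraries, had no read there. A pair chosen after its values were seen, Lachnoclostridium ASV 9 and ASV 10, was found in all 3 Sham libraries and in no other library, at 0.00482% to 0.0242% and 0.00602% to 0.0121%. This pattern was not particular to these genera. It held for 2 of the 146 member ASVs, 44 of the 1855 other ASVs of the family and 131 of all 7238 ASVs outside Eukaryota.

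Acetatifactor was steady in Sham at 0.0391%, 0.0403% and 0.0383%. It was lower in each SAH library (0.0161%, 0.0147% and 0.0372%) and higher in each SAH+Tet library (0.0686%, 0.0577% and 0.0796%). In SAH+Tet+ABX it had 0 reads in libraries 1 and 2 and 11 reads in library 3 (0.00449%). Acetatifactor ASV 3, another of the 5 ASVs with the lowest p, was found in all 3 Sham libraries (0.00782% to 0.00962%) and all 3 of SAH+Tet (0.00542% to 0.0162%), with no read in SAH or SAH+Tet+ABX.

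The remaining genera were scarce. The [Eubacterium] ventriosum group, butyrate makers of the human and animal gut, had 0.0194%, 0.00803% and 0.0108% in Sham and 0.0129%, 0.0154% and 0.00914% in SAH. It had 0.0197%, 0.0184% and 0.0185% in SAH+Tet and no read in SAH+Tet+ABX. Lachnospira ran from 0% to 0.0467%, its highest value in SAH+Tet 1, with 0 reads in 5 libraries. The [Eubacterium] oxidoreducens group ran from 0% to 0.0167% and had reads in 6 libraries, all 3 of SAH+Tet among them. Each of its 13 ASVs was found in 1 library only.

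SAH against Sham asks what the haemorrhage changed, and 0 of the 8 member genera tested passed, as did 0% of the 187 genera tested by edgeR. The [Eubacterium] ruminantium group differed most: its log2 fold change was -4.02 with an SE of 1.67 and an adjusted p of 0.157. The SE is the absolute log2 fold change divided by the square root of the test's F statistic. It was the 1 member genus of 8 with an unadjusted p under 0.05, against 29.4% of all genera. Unlike edgeR, DESeq2 called it (log2 fold change -3.88, adjusted p = 0.0317), as 1 of 7 members with an adjusted p, against 26.1% of all genera. With limma on centred log-ratios, 0 of 8 members and 4.81% of all genera passed. The next largest difference was -2.32 for Lachnospira (SE 2.31, adjusted p = 0.557), while Roseburia was at 0.64 (SE 0.610, adjusted p = 0.536). The median of the 8 genera was -0.54, against 0.10 over all genera. All 3 libraries of SAH and of Sham stood apart for 2 of 8 members, the [Eubacterium] ruminantium group and, narrowly, Acetatifactor, against 35.3% of all genera.

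Among ASVs, 56 members were tested in this comparison and 0 passed, as did 0% of the 2283 ASVs tested by edgeR. At an unadjusted p under 0.05 there were 8, against 24.2% of all ASVs. DESeq2 called 4 of the 49 members it gave an adjusted p, against 16.1% of all ASVs, and limma 4 of 56, against 11.8%. The lowest adjusted p, 0.110, was that of [Eubacterium] xylanophilum group ASV 5 (at least 428-fold higher in SAH, where Sham had no read), Acetatifactor ASV 3 and Lachnoclostridium ASV 10. These bounds and all later ones set a group without reads at 3 reads per library. Lachnoclostridium ASV 10, and ASV 9 of the same genus among the 8, had reads in Sham only. They met the filter on reads through that group alone, so their low p is not separate support for a difference.

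SAH+Tet against SAH asks what tetrandrine changed after haemorrhage, and again 0 of 8 member genera passed, with 0% of 187 genera called by edgeR. The 2 with an unadjusted p under 0.05, against 17.6% of all genera, differed in opposite directions. Roseburia had a log2 fold change of -1.97 (SE 0.630, adjusted p = 0.165) and Acetatifactor one of 1.55 (SE 0.501, adjusted p = 0.165). DESeq2 called both, at adjusted p = 0.0169 and 0.00317, which is 2 of 7 members against 16.3% of all genera. With limma 0 of 8 members passed, against 0.535% of all genera. The groups did not overlap for 4 of 8 members, Roseburia, Acetatifactor and the [Eubacterium] ventriosum and oxidoreducens groups, against 23.5% of all genera. Depth differed within these groups. In the higher depth class the log2 ratio of mean shares of Roseburia was -0.89, and between the single libraries of the lower class, SAH+Tet 3 and SAH 1, it was -3.89. For Acetatifactor these values were 1.28 and 2.31.

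Of 56 member ASVs tested between SAH+Tet and SAH, 0 passed, against 0% of 2283 ASVs by edgeR, and 13 had an unadjusted p under 0.05, against 20.8% of all ASVs. DESeq2 called 7 of 47 members, against 12.6% of all ASVs, and limma 2 of 56, against 4.91%. Of those 13, 8 were Roseburia ASVs, and 7 of these had no read in 1 of the groups. The other, Roseburia ASV 1, had a log2 fold change of -4.62 (SE 1.83, adjusted p = 0.221). Roseburia ASV 20 and ASV 22, and Acetatifactor ASV 8 among the 13, had reads in SAH+Tet only. They met the filter on reads through that group alone, so their low p is not separate support for a difference. [Eubacterium] xylanophilum group ASV 3 had a log2 fold change of 3.07 (SE 1.19, adjusted p = 0.209).

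**Figure D3:**
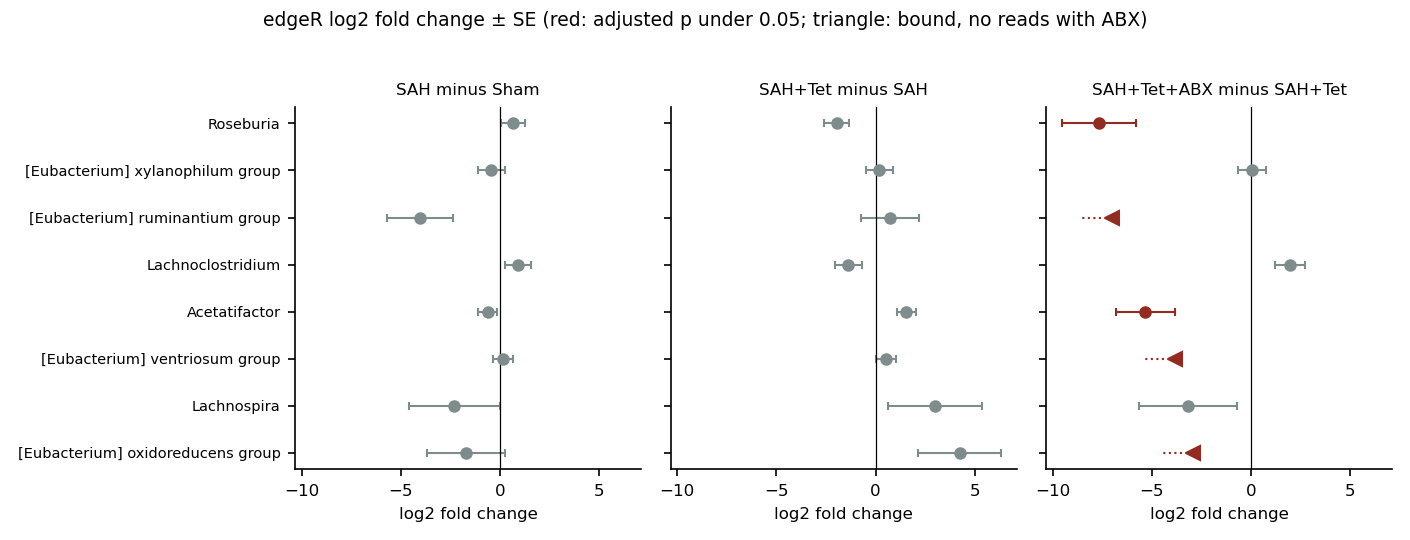
edgeR log2 fold changes of the 8 genera tested, with bars of 1 SE, in 3 comparisons; red marks an adjusted p under 0.05, and triangles give the bound for genera without reads in SAH+Tet+ABX, where the dotted line points to larger differences. The 5 red symbols are all in SAH+Tet+ABX minus SAH+Tet and all below 0.

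SAH+Tet+ABX against SAH+Tet asks what antibiotics changed, and most of these genera were at or near 0 reads with them. In this comparison, 5 of the 8 genera tested were lower and 0 higher by edgeR's test: Roseburia, Acetatifactor and the [Eubacterium] ruminantium, ventriosum and oxidoreducens groups. Of all genera tested, 37.9% passed and 28.7% passed as lower. Mean Roseburia was 232-fold lower (log2 fold change -7.68, SE 1.86, adjusted p = 0.0131), and mean Acetatifactor 45.8-fold lower (-5.33, SE 1.48, adjusted p = 0.0193). Each of these folds rests on the reads of 1 SAH+Tet+ABX library, 28 in library 2 for Roseburia and 11 in library 3 for Acetatifactor. Leaving out that library left the group without a read of the genus. The adjusted p of 0.00158 and 0.000741 then obtained is thus no separate support. The other 3 had no read in SAH+Tet+ABX. The [Eubacterium] ruminantium group was at least 129-fold lower (adjusted p = 0.0119), the [Eubacterium] ventriosum group at least 14.4-fold (0.000745) and the [Eubacterium] oxidoreducens group at least 7.69-fold (0.0485).

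The call of the [Eubacterium] oxidoreducens group was lost without any 1 of 9 libraries: Sham 1, SAH 2, SAH 3 and each of SAH+Tet and SAH+Tet+ABX, with adjusted p from 0.0526 to 0.102. With a fit of these 6 libraries alone, adjusted p was 0.0552 for Roseburia and 0.0517 for Acetatifactor, which left 3 calls. The median log2 fold change of the 8 genera was -3.51 with genera without reads at their bounds, against -1.24 over all 195 genera. Groups did not overlap for 6 of 8 members, the 5 called and Lachnoclostridium, against 42.1% of all genera. All 3 SAH+Tet+ABX libraries were of the lower depth class. Against SAH+Tet 3, of that class too, the log2 ratio of mean shares was -6.52 for Roseburia and -5.73 for Acetatifactor.

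The [Eubacterium] xylanophilum group and Lachnoclostridium were not called lower. The first had a log2 fold change of 0.05 (SE 0.707, adjusted p = 0.981), whose sign turned with library-size scaling (-0.01). Lachnoclostridium had one of 1.97 (SE 0.775, adjusted p = 0.0684), and both DESeq2 (2.46, adjusted p = 0.000373) and limma on centred log-ratios (4.13, adjusted p = 0.00373) called it higher, against 55.6% and 38.5% of all genera called by these tools in either direction. Centred log-ratios moved the median of all genera from -1.70 to -0.03, and the higher genera from 24.3% to 56.0% of those called, while DESeq2 put the latter at 36.2%. Lachnospira stood at -3.17 (SE 2.47, adjusted p = 0.309), which went to 5.51 without SAH+Tet 1 and to -8.78 without SAH+Tet+ABX 3.

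At the ASV level, 59 members were tested between SAH+Tet+ABX and SAH+Tet; 10 were lower and 1 higher by edgeR, against 10.3% of all 2394 ASVs called and 9.73% called lower. Each of the 10 had no read in SAH+Tet+ABX. They were 3 of Roseburia, 3 of the [Eubacterium] xylanophilum group, 2 of Acetatifactor and 1 each of the [Eubacterium] ruminantium and ventriosum groups. The strongest was [Eubacterium] xylanophilum group ASV 3, at least 234-fold lower (adjusted p = 0.0170), and Roseburia ASV 1 was at least 69.6-fold lower (adjusted p = 0.0254). The higher one was Lachnoclostridium ASV 1, at least 71.4-fold (adjusted p = 0.0496). With reads in SAH+Tet+ABX only, it met the filter of 10 reads in 3 libraries through that group alone. Its call is thus not separate support for a rise. The count of 11 fell to 0 without SAH+Tet+ABX 3, to 1 without SAH+Tet+ABX 1, to 3 without SAH+Tet+ABX 2, to 4 without Sham 3 and to 5 without SAH+Tet 1. It was 6 without Sham 1 or SAH+Tet 2, 7 without Sham 2 or SAH 2, 17 without SAH+Tet 3 and 18 without SAH 1.

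Over the 4 groups, 15 of 59 member ASVs passed, against 18.0% of the 2394 tested by edgeR. They were 5 of Lachnoclostridium, 4 of Roseburia, 2 each of Acetatifactor and the [Eubacterium] xylanophilum group, and 1 each of the [Eubacterium] ruminantium and ventriosum groups. The 5 of Lachnoclostridium, Roseburia ASV 20 and ASV 22, and Acetatifactor ASV 8 had reads in all 3 libraries of 1 group only. Such ASVs could meet the filter on reads only through that group, so their calls are not separate support for a difference. The adjusted p was 0.0410 for 12 of the 15, and the count fell to 0 without any 1 of Sham 1, Sham 2, Sham 3, SAH 2 or the 3 SAH+Tet+ABX libraries.

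The SAH+Tet+ABX libraries held 17 of the 146 member ASVs, and 12 of these (70.6%) had no read in the other 9 libraries, 7 of which were sequenced deeper. The same share was 54.4% for the other ASVs of the family and 47.0% for all ASVs. In reads, ASVs found in no other group gave 100% of the reads of the 9 genera in SAH+Tet+ABX 1, 39.0% in SAH+Tet+ABX 2 and 99.4% in SAH+Tet+ABX 3. In the other 9 libraries, ASVs found in only the library's own group gave 0.377% to 10.2% of these reads. Over all ASVs, the SAH+Tet+ABX values were 21.6%, 5.40% and 11.9%, and over the other ASVs of the family 49.8%, 22.8% and 20.4%. SAH+Tet+ABX 2 stood apart from its group through the [Eubacterium] xylanophilum group, where 32.5% of the reads came from ASVs found in no other group, against 100% in each of SAH+Tet+ABX 1 and 3. Of its 1775 reads there, 703 were of [Eubacterium] xylanophilum group ASV 7 and 449 of ASV 10, both also found without antibiotics and named here after their values were seen.

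**Figure D4:**
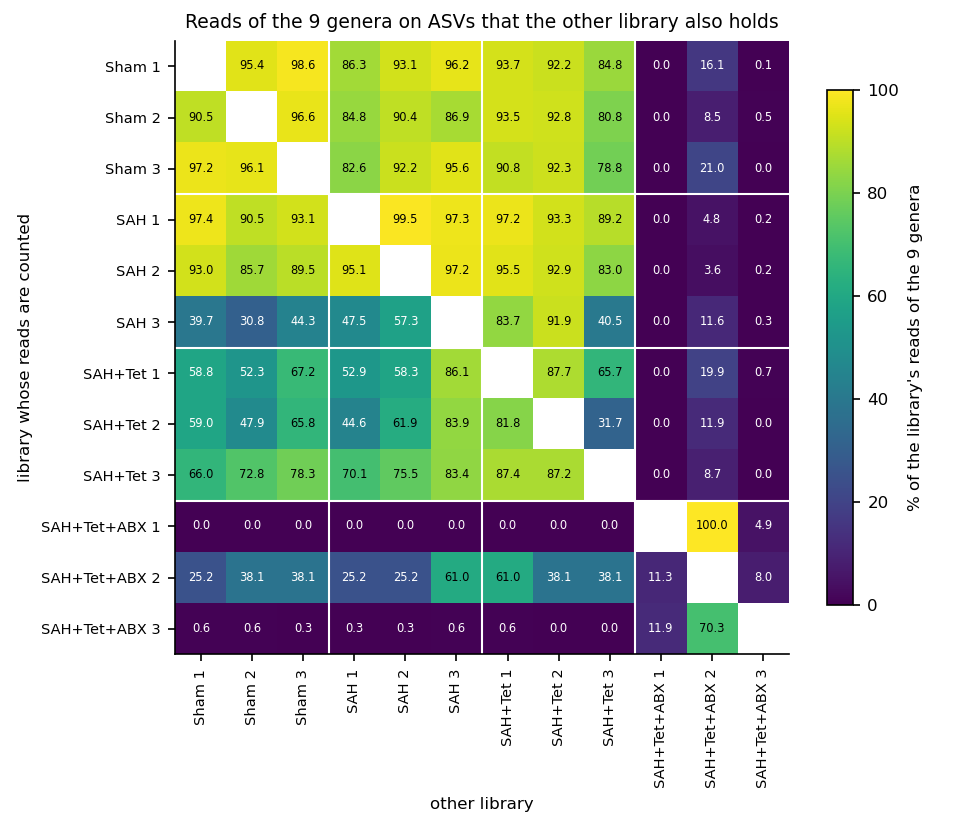
For each library (rows), the percentage of its reads of the 9 genera that lie on ASVs the other library (columns) also holds; white lines separate the groups. SAH 3 shares 83.7% and 91.9% of these reads with SAH+Tet 1 and 2 but 47.5% and 57.3% with SAH 1 and 2. The other way, SAH 1 and 2 share 97.3% and 97.2% with SAH 3. SAH+Tet+ABX 1 shares 0% with each of the 9 libraries without antibiotics.

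Of the 146 member ASVs, 66 (45.2%) were found in 1 library, against 47.9% of all ASVs, and 6 (4.11%) in all 9 libraries without antibiotics, against 3.58%. None was found in all 12. The 6 were Roseburia ASV 1 and ASV 5, [Eubacterium] xylanophilum group ASV 1 and ASV 3, and the leading ASVs of the [Eubacterium] ruminantium and ventriosum groups. The reads of SAH 1 and SAH 2 lay almost wholly on shared ASVs: 99.5% of the reads of SAH 1 were on ASVs of SAH 2, and 95.1% the other way. SAH 3 shared 47.5% and 57.3% of its reads with them, against 83.7% with SAH+Tet 1 and 91.9% with SAH+Tet 2. The other way, 97.3% of the reads of SAH 1 and 97.2% of those of SAH 2 were on ASVs of SAH 3. For SAH+Tet 1 and 2 these values were 86.1% and 83.9%.

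The number of ASVs within a genus was compared after thinning each library to 211450 reads (means of 100 draws), by exact permutation of the F statistic over all splits into 4 groups of 3, with adjustment over the 5 genera that have at least 10 ASVs. Roseburia had 13.96 ± 1.035 ASVs in Sham, against 16.2 ± 4.73 for SAH, 19.1 ± 2.96 for SAH+Tet and 0.333 ± 0.577 for SAH+Tet+ABX (exact adjusted p = 0.0185, n = 3 per group). Its ASV count was thus not lower in SAH+Tet, where its share of reads was. Acetatifactor had 6.00 ± 1.00, 3.98 ± 2.62, 6.33 ± 1.53 and 0.333 ± 0.577 ASVs in the same order (exact adjusted p = 0.0200). Lachnoclostridium had 4.63 ± 1.10, 2.00 ± 1.00, 3.33 ± 0.583 and 4.00 ± 0 (exact adjusted p = 0.0200), with none of its ASVs in SAH+Tet+ABX found in another group. The [Eubacterium] oxidoreducens group passed narrowly (exact adjusted p = 0.0495), and each of its ASVs was found in 1 library only. In SAH+Tet+ABX, Roseburia had 28 reads and Acetatifactor 11, each in 1 library. For both genera this test thus largely restates their near-absence there and is no separate result on diversity. The [Eubacterium] xylanophilum group did not pass, at 11.7 ± 3.21, 13.3 ± 5.51, 13.7 ± 6.50 and 3.33 ± 3.21 (exact adjusted p = 0.118). The count of genera passing fell from 4 to 1 without Sham 2 or any 1 SAH+Tet+ABX library and to 2 without SAH 1. Richness was tested in these 5 genera only, so the share of all genera that would pass is not known. Roseburia passed without each of the 12 libraries in turn, with an exact adjusted p of at most 0.0393.

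**Figure D5:**
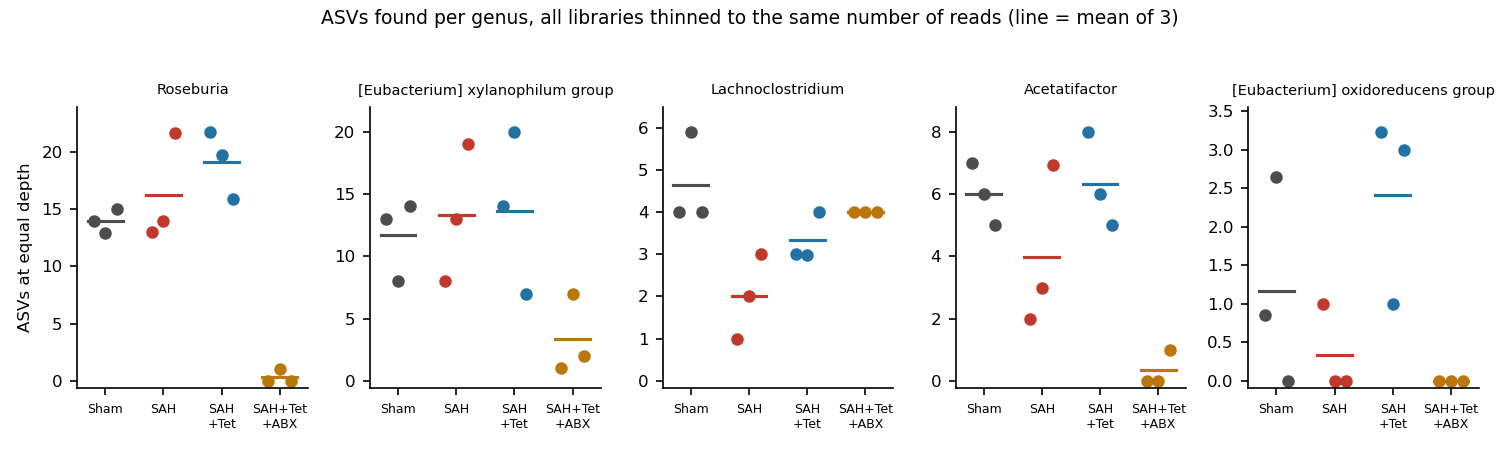
Number of ASVs found per library in the 5 genera with at least 10 ASVs, each library thinned to 211450 reads; points are libraries, lines are means of 3. In SAH+Tet+ABX each library has 0 or 1 ASV of Roseburia and of Acetatifactor, and 4 of Lachnoclostridium, all of them found in no other group.

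Other genera known for butyrate were read from a list of 23 names, of which 15 were found and 12 tested for the ABX comparison. By edgeR, 2 were lower, Butyricimonas (0.0658% in SAH+Tet, adjusted p = 0.00104) and Odoribacter (0.01995%, adjusted p = 0.0357), both without a read in SAH+Tet+ABX. A further 2 were higher, Flavonifractor (0.241% in SAH+Tet+ABX, adjusted p = 0.0119) and Eisenbergiella (0.0269%, adjusted p = 0.0357), both without a read in SAH+Tet. The median log2 fold change was -0.39. Between SAH and Sham and between SAH+Tet and SAH, 0 of 10 passed. In the rest of the family, 24 genera were tested between SAH+Tet+ABX and SAH+Tet, of which 7 were higher and 2 lower, with a median of 0.84. Over all genera tested, 37.9% were called and 28.7% called lower, with a median of -1.70. The lists overlap: Eisenbergiella, Anaerostipes, Coprococcus and the Lachnospiraceae NK4A136 group are counted in both. Blautia, an acetate maker, is given as 1 example of the 7 higher. Its mean was 2.21% ± 2.35 in SAH+Tet+ABX against 0.0907% ± 0.0436 in SAH+Tet (log2 fold change 4.78, SE 1.32, adjusted p = 0.0189). High shares were not particular to antibiotics: the Blautia mean was 3.00% ± 2.65 in SAH and 0.176% ± 0.210 in Sham. The difference between the lists was not tested.

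The genera whose profile over the 12 libraries came closest to those of the 3 leading members were found by the root mean square difference of centred log2 shares (share in percent plus 0.001) among 99 features of at least 0.05% mean share. For Roseburia they were unnamed Prevotellaceae (1.55), unnamed Desulfovibrionaceae (1.57) and Quinella (1.61), against a median of 4.34. For the [Eubacterium] ruminantium group they were Quinella (2.24), Desulfovibrio (2.27) and unnamed Erysipelotrichaceae (2.35), against a median of 4.12. For the [Eubacterium] xylanophilum group they were Pseudomonas (0.589), Colidextribacter (0.644) and unnamed Lachnospiraceae (0.680), against a median of 2.86. The first 2 sets share near-absence from SAH+Tet+ABX with the genus they resemble.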

How the data were processed

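The authors deposited 16S ASV read counts for 12 libraries of rat faeces with a lineage per ASV. These are whole-number counts that were not normalized, and the 12 per-sample files held the same values as the table of the series. Reads were handled with fastp and cutadapt, per the submitters' processing notes. The sources used here name no primers, denoiser or lineage reference. Library totals were 211450 to 531426 reads.

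Counts were summed by family and genus. Features with at least 10 reads in at least 3 libraries were tested with edgeR 4.0.16 (TMM scaling, quasi-likelihood, R 4.3.3) over all features, with Benjamini-Hochberg adjustment at 0.05. SAH against Sham and SAH+Tet against SAH used the 9 libraries without antibiotics; the other tests used all 12. Alternatives were library-size and RLE scaling, no filter, DESeq2 1.42.0, limma 3.58.1 on centred log-ratios (0.5 added), depth class, a replicate block and leaving out each library. Leaving out a library together with the leading Roseburia ASV was added after seeing the data. Permutation tests were enumerated in full in Python 3.11.15. Shares are percentages of all reads in a library.

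ASVs named in the text are the leading 3 of each genus with a mean share of at least 0.01% and the 5 with the lowest p over the 4 groups, unless said otherwise. The members and lists were chosen with earlier results of these data known. Same-numbered libraries of different groups had residual correlations from -0.586 to 0.496, above 0.1 in 2 of 18 pairs, so the numbers were not treated as pairs.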

Additional observations from a re-analysis of the deposited data

How the results depend on the processing

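Among results on single genera, 664 values under alternatives kept their direction and side of the threshold, 13 passed it, 40 no longer passed it, 11 without a test moved by more than the spread and 23 changed sign. For member genera over the 4 groups, 3 were called by edgeR and 5 each by DESeq2 and by limma on centred log-ratios (which called 52.7% and 46.2% of all genera), with 3 to 4 when a library was left out. DESeq2 called 1 of 7 genera between SAH and Sham (26.1% of all genera) and 2 of 7 between SAH+Tet and SAH (16.3%), where edgeR called 0, also without any 1 library. Between SAH+Tet+ABX and SAH+Tet, 5 were called, 3 with those 2 groups alone (fewer samples) and 4 to 5 without 1 library. Of member ASVs over the 4 groups, 15 were called, 37 of 146 with no filter on low counts (14.1% of all ASVs) and 0 to 17 without 1 library. Between SAH and Sham, DESeq2 and limma called 4 ASVs each and the unfiltered fit 3 (2.38% of all ASVs), against 0. Between SAH+Tet and SAH, DESeq2 called 7 and limma 2, against 0; both counts of 0 stayed at 0 without any 1 library. Between SAH+Tet+ABX and SAH+Tet, 11 ASVs were called, 6 with library-size scaling (6.64% of all ASVs), 25 of 45 by DESeq2 (41.6%) and 0 to 18 without 1 library. With the replicate number as a block, a pairing the data did not bear out, 6 of these ASVs and 0 of the 4 richness results passed, and the 4-group adjusted p of Roseburia by edgeR was 0.0609; richness ranged from 1 to 4 without 1 library.

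Sign changes were all among log2 fold changes that did not pass. For SAH minus Sham they were Roseburia by limma (-0.17), the [Eubacterium] ventriosum group with library-size scaling (-0.027), by limma (-0.45) and without 1 library (-0.090 to 0.64), and the [Eubacterium] oxidoreducens group without 1 library (-6.06 to 0.74). For SAH+Tet minus SAH they were the [Eubacterium] xylanophilum group with those 2 groups alone (-0.042) and without 1 library (-0.16 to 0.48), the [Eubacterium] ruminantium group by limma (-0.13), with the replicate block (-0.37) and without 1 library (-1.04 to 1.27), and Lachnospira by limma (-0.14) and without 1 library (-6.19 to 3.55). For SAH+Tet+ABX minus SAH+Tet they were the [Eubacterium] xylanophilum group with library-size scaling (-0.013), with the replicate block (-0.13) and without 1 library (-0.11 to 0.37), and Lachnospira by limma (1.59), with depth class as a term (4.75) and without 1 library (-8.78 to 5.51). The cause was not tested.

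With 3 libraries a group and totals from 211450 reads, genera under about 0.01% rest on few reads, and depth class and group cannot be told apart within SAH+Tet+ABX.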
